A study of Saccharomyces cerevisiae with 5 samples.

Results

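The genes described here encode the cytosolic machinery of protein synthesis in Saccharomyces cerevisiae apart from the ribosome itself: 18 aminoacyl-tRNA synthetase genes and 32 genes for initiation, elongation and termination factors. They were chosen by gene name from general knowledge of yeast, with earlier results of these data known. Of the 50, 49 had a named probe among the 4068 named genes of the arrays. The exception was GUS1, the glutamyl-tRNA synthetase gene, for which no probe carried that name. The study set a strain lacking SIW14, which encodes a phosphatase of inositol pyrophosphates, against wild-type cells, and asked how its loss bears on the response to environmental stress. Log-phase cultures in synthetic complete medium gave polyadenylated RNA, which was hybridised to 5 two-colour arrays. On 3 arrays the siw14 deletion strain (named Siw14D) was compared with the wild type BY4741, with no stress, with both strains in 0.4 mM hydrogen peroxide for 20 min, or with both strains in 0.4 M KCl for 20 min. On the other 2 arrays a wild type named ACY044 was compared, in 0.4 mM hydrogen peroxide or in 0.4 M KCl for 20 min, with its own unstressed cells. How many clones or cultures stood behind each strain is not given in the labels.

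Protein synthesis starts when initiation factors bring the initiator tRNA and the mRNA to the small ribosomal subunit and the start codon is found. Elongation factors then deliver charged tRNAs and move the ribosome along the mRNA, and termination factors release the protein at a stop codon. Aminoacyl-tRNA synthetases charge each tRNA with its amino acid. In yeast the genes for this machinery are known to be expressed most strongly in fast growth, and many of them are known to go down together with genes for making ribosomes when cells meet a stress.

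Every value below is a log2 ratio of 1 array, of mutant over wild type or of stressed over unstressed cells, unless it is called a difference between ratios, and 0 means equal signal. Each comparison had 1 array and no replicate, so no test was possible, no value has an error and no difference has a replicate check. The mutant or stressed RNA carried Cy5 on every array, so that a dye effect of a probe cannot be told apart from the compared difference. Of the 245 values that 49 genes could have on 5 arrays, 242 were present. The missing ones were TIF1 on the array of the mutant in peroxide, and KRS1 and TEF2 on that of the mutant in KCl. SIW14 lay at -2.07, -1.66 and -2.06 on the 3 mutant arrays. A gene counts as higher or lower where its ratio differs from 0 by at least 1, that is by 2-fold, a limit of size only. The ratios compare signal within an array, so a shift in all mRNA of a cell cannot be told apart from no shift.

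Most of the 49 genes had less RNA in stressed than in unstressed wild-type cells, and most also had less in the mutant than in the wild type under the same stress. The median in wild type in KCl was -0.90, and 21 of 49 genes were at least 2-fold lower against a background of 11.7% of all genes, while 3 were at least 2-fold higher against 11.5%. The median in wild type in peroxide was -0.41, with 7 of 49 at least 2-fold lower against 11.3% of all genes and 1 at least 2-fold higher against 10.7%. Neither count in peroxide lay far above its background, whereas 41 of the 49 genes lay below 0, against 48.9% of all genes. After the arrays were scaled to a common spread the counts in peroxide were 3 lower and 1 higher, against 9.25% and 8.41% of all genes, so both lay below their background.

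In the mutant against wild type in KCl the median was -0.71, with 13 of 47 genes at least 2-fold lower against 11% of all genes and 0 at least 2-fold higher against 11.4%. In peroxide the corresponding median was -0.44, with 4 of 48 lower against 8.3% and 0 higher against 12.8%, so the count of lower genes was at its background. Below 0 lay 42 of 47 genes in KCl and 39 of 48 in peroxide, against 50.2% and 50.8% of all genes. Without stress the mutant's median was -0.16, with 32 of 49 genes below 0 against 2804 of all 5603 genes with a value. No gene there was at least 2-fold higher or lower, against 6.18% and 1.55% of all genes, and after scaling to a common spread 3 were higher and 6 lower. Medians of all genes lay between -0.02 and 0.03 on the 5 arrays.

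**Figure D1:**
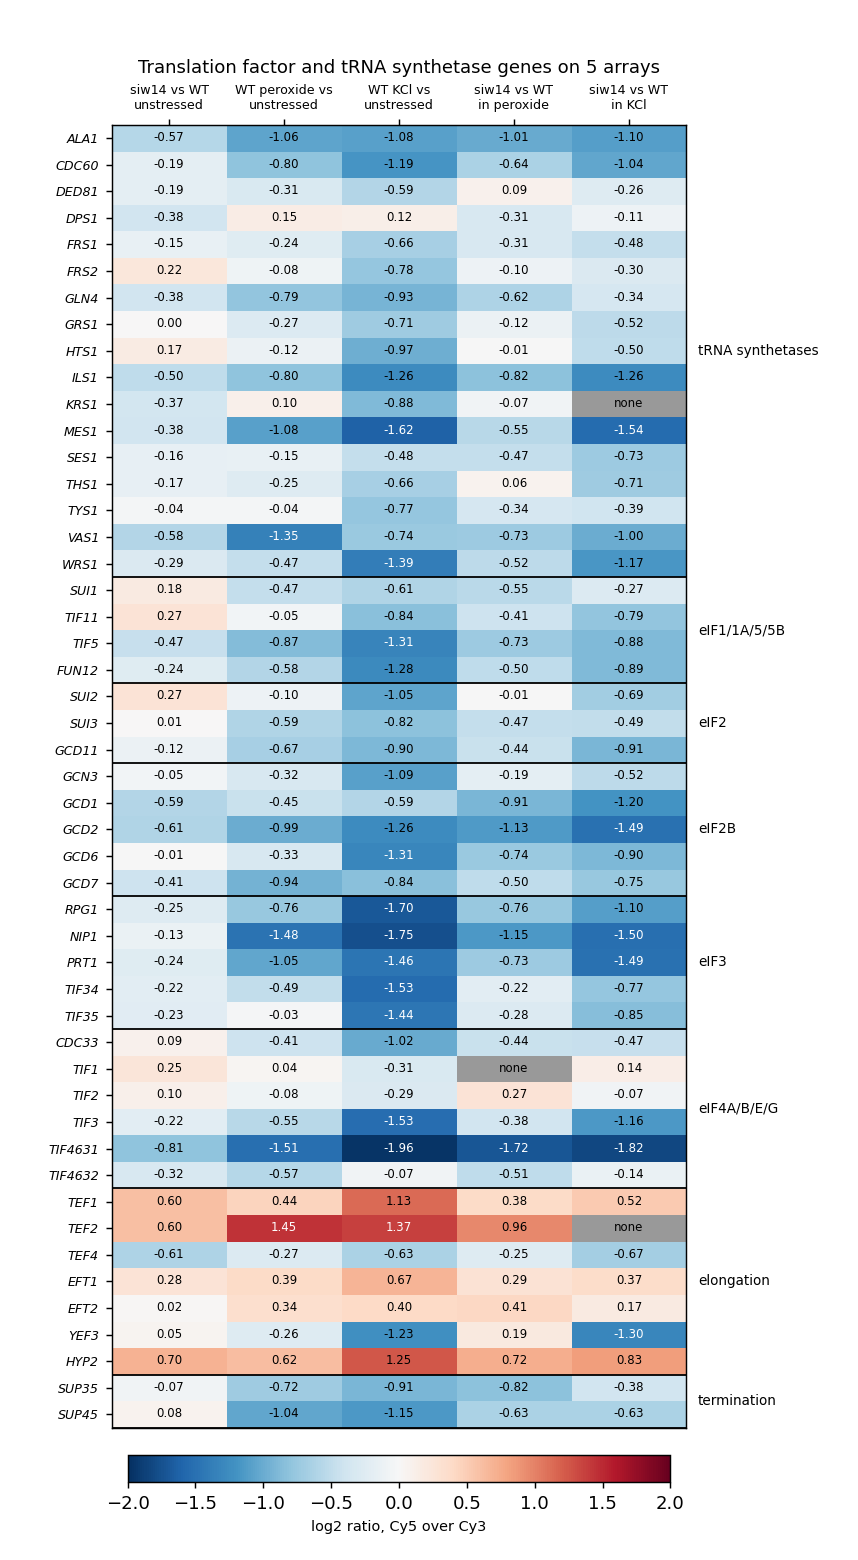
Log2 ratios of the 49 genes with a probe (rows, by role) on the 5 arrays (columns), with the value printed in each cell, blue below 0, red above 0 and grey for a missing value. The column of wild type in KCl holds 21 values at or below -1, and the red cells are mostly those of TEF1, TEF2, EFT1, EFT2 and HYP2.

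The genes differed in how often they were low. ALA1, NIP1 and TIF4631 were at least 2-fold lower on 4 of the 5 arrays, and MES1, GCD2 and PRT1 on 3. A further 7 genes were so on 2 arrays and 10 on 1 array, and 26 on none. The same tally was not made for all genes, of which 1.55% to 11.7% were at least 2-fold lower on a given array. Those shares are no background for the tally, since arrays were correlated across all genes. The Pearson correlation was 0.58 to 0.70 in the array pairs compared. Of the 46 genes with a value on all arrays, 28 lay below 0 on all 5, against 21.3% of all genes, and 4 lay above 0 on all 5, against 22.3%. The lowest of a gene's 5 values was that of wild type in KCl for 28 of the 46, against 24.3% of all genes. Below, 5 values of a gene stand in the order mutant unstressed, wild type in peroxide, wild type in KCl, mutant in peroxide and mutant in KCl.

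The synthetase genes had medians of -0.19, -0.27, -0.78, -0.34 and -0.61 in that order. At least 2-fold lower were 5 of 17 in wild type in KCl and 5 of 16 in the mutant in KCl, against 11.7% and 11% of all genes. The same genes made up both counts: ALA1, CDC60, ILS1, MES1 and WRS1, for the enzymes that charge alanine, leucine, isoleucine, methionine and tryptophan tRNAs. The share of all genes lower on both arrays was not computed. The ratios of these arrays had a Pearson correlation of 0.69 across all 5735 genes with both values. MES1 lay at -0.38, -1.08, -1.62, -0.55 and -1.54 and was the lowest synthetase gene on both KCl arrays. ILS1 lay at -0.50, -0.80, -1.26, -0.82 and -1.26, and WRS1 at -0.29, -0.47, -1.39, -0.52 and -1.17. These genes were lower on each KCl array than on the matching peroxide array.

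ALA1 differed little between the stresses, and VAS1 stood in the opposite order in wild type. ALA1 lay at -0.57, -1.06, -1.08, -1.01 and -1.10, nearly level over the 4 arrays with stress. VAS1, which encodes the valine enzyme, lay at -0.58, -1.35, -0.74, -0.73 and -0.999, so that its lowest value was in wild type in peroxide. CDC60 lay at -0.19, -0.80, -1.19, -0.64 and -1.04. DPS1, the aspartate enzyme gene, was the only synthetase gene above 0 in wild type in KCl, with -0.38, 0.15, 0.12, -0.31 and -0.11.

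The other synthetase genes stayed within 2-fold on every array where they had a value. They were DED81, FRS1, FRS2, GLN4, GRS1, HTS1, KRS1, SES1, THS1 and TYS1, for asparagine, phenylalanine, glutamine, glycine, histidine, lysine, serine, threonine and tyrosine. They lay between -0.97 for HTS1 and -0.48 for SES1 in wild type in KCl, and between -0.79 for GLN4 and 0.10 for KRS1 in wild type in peroxide. FRS1 and FRS2 encode the beta and alpha subunits of the phenylalanine enzyme, and the difference between their ratios was at most 0.37 in size, on the unstressed mutant array.

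**Figure D2:**
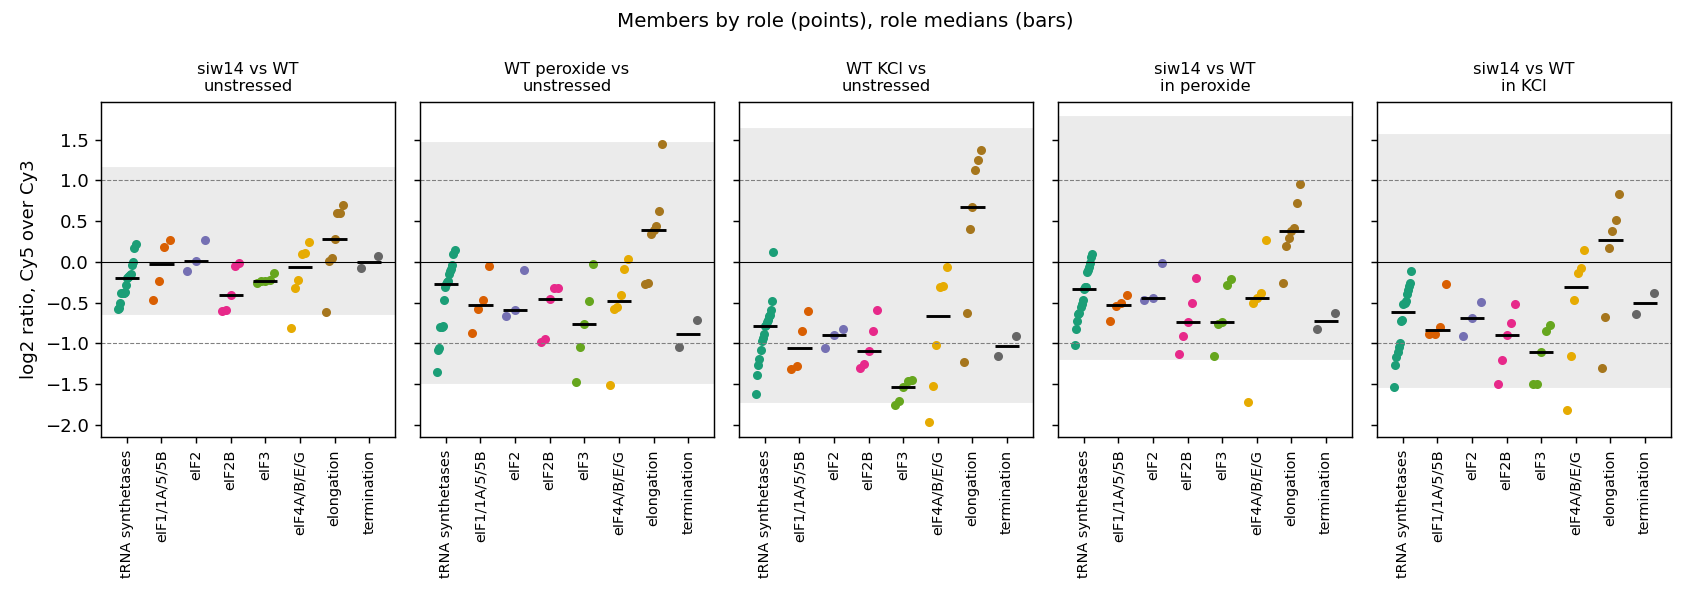
Log2 ratio of each gene (points) by role in 5 panels, 1 per array, with the median of a role as a bar, the central 90% of all genes as a grey band and dashed lines at 2-fold. In wild type in KCl the eIF3 genes sit together between -1.75 and -1.44, and the elongation factor genes reach from -1.23 to 1.37.

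Yeast mitochondria translate their own mRNAs, and for several amino acids a separate nuclear gene encodes the mitochondrial synthetase. For 10 amino acids both genes had probes, a comparison chosen after the values were seen. The cytosolic gene's ratio was below that of its mitochondrial counterpart in 10 of 10 pairs on each array, or 9 of 9 for the mutant in KCl, where KRS1 had no value. By array, 82.4% to 100% of all cytosolic synthetase genes with a value lay below 0. Of the mitochondrial synthetase and translation factor genes, 5.88% to 29.4% did. Other pairings were not tried, so the counts do not set matched pairs apart. The median difference between the ratios was -0.36 in the unstressed mutant, -0.87 in wild type in peroxide, -1.33 in wild type in KCl, -0.76 in the mutant in peroxide and -1.27 in the mutant in KCl. The widest difference was -2.0, for MES1 at -1.62 against MSM1 at 0.38 in wild type in KCl. The difference for KRS1 at -0.88 and MSK1 at 1.08 on the same array was -1.96. The narrowest was -0.15, for FRS2 at 0.22 and MSF1 at 0.37 in the unstressed mutant. ALA1, GRS1, HTS1 and VAS1 are known to encode both the cytosolic and the mitochondrial enzyme and have no counterpart in this comparison.

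**Figure D3:**
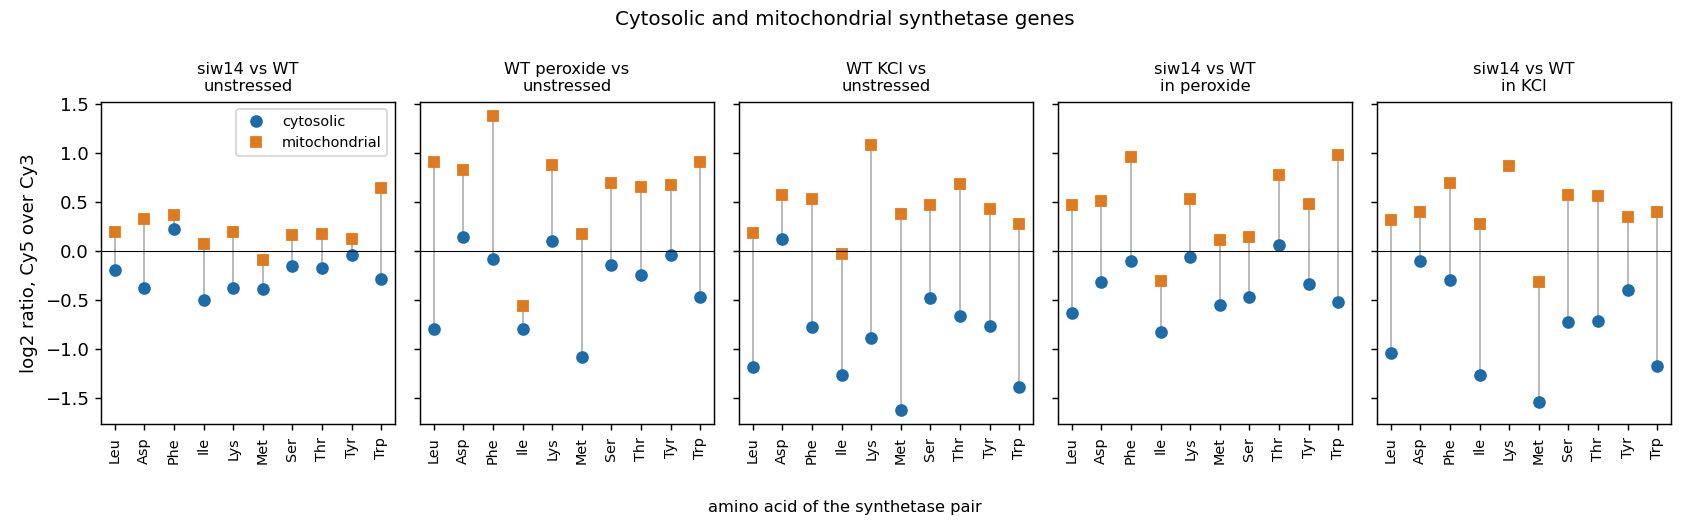
Log2 ratios of the cytosolic (blue circles) and mitochondrial (orange squares) synthetase gene for 10 amino acids, 1 panel per array, with a grey line joining a pair; phenylalanine is shown by FRS2 and MSF1. The blue circle lies below the orange square in each complete pair on each array.

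The genes of factors that read the start codon lay below 0 in stressed wild-type cells. SUI1, TIF11, TIF5 and FUN12 encode eIF1, eIF1A, eIF5 and eIF5B, of which eIF1 and eIF1A hold the scanning ribosome open, eIF5 triggers GTP hydrolysis by eIF2 and eIF5B joins the large subunit. Their medians were -0.03, -0.53, -1.06, -0.52 and -0.84. TIF5 lay at -0.47, -0.87, -1.31, -0.73 and -0.88, and FUN12 at -0.24, -0.58, -1.28, -0.50 and -0.89. TIF11 lay at 0.27, -0.05, -0.84, -0.41 and -0.79, and SUI1 at 0.18, -0.47, -0.61, -0.55 and -0.27. In the unstressed mutant the small proteins' genes SUI1 and TIF11 thus lay above 0 and TIF5 and FUN12 below it, whereas all 4 lay below 0 on the other arrays.

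The factor eIF2 carries the initiator tRNA, and eIF2B reloads it with GTP. When the kinase Gcn2 phosphorylates the alpha subunit of eIF2, encoded by SUI2, eIF2B is inhibited and general initiation falls. The 3 eIF2 genes had medians of 0.01, -0.59, -0.90, -0.44 and -0.69. SUI2 lay at 0.27, -0.10, -1.05, -0.01 and -0.69, with its low values on the KCl arrays. GCD11, the gamma subunit gene, lay at -0.12, -0.67, -0.90, -0.44 and -0.91, and SUI3, the beta subunit gene, at 0.01, -0.59, -0.82, -0.47 and -0.49.

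All 5 eIF2B genes lay below 0 on each of the 5 arrays, against 21.3% of all genes with a value on every array. The same held for all 5 eIF3 genes described below. The eIF2B medians were -0.41, -0.45, -1.09, -0.74 and -0.90. The catalytic epsilon subunit is encoded by GCD6, which lay at -0.01, -0.33, -1.31, -0.74 and -0.90. GCD2, which encodes the regulatory delta subunit, lay at -0.61, -0.99, -1.26, -1.13 and -1.49, the lowest of the complex on both stressed mutant arrays. GCD1, the gamma subunit gene, lay at -0.59, -0.45, -0.59, -0.91 and -1.20, and unlike the others was lower on each stressed mutant array than on either wild-type array. GCN3 and GCD7, for the regulatory alpha and beta subunits, lay at -0.05, -0.32, -1.09, -0.19 and -0.52 and at -0.41, -0.94, -0.84, -0.50 and -0.75.

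The eIF3 genes were the lowest role in wild type in KCl. This complex binds the small subunit and helps to recruit the other factors and the mRNA. All 5 of its core subunit genes lay between -1.75 and -1.44 on that array, where 11.7% of all genes were at least 2-fold lower. The medians of the complex were -0.23, -0.76, -1.53, -0.73 and -1.10. NIP1 lay at -0.13, -1.48, -1.75, -1.15 and -1.50, PRT1 at -0.24, -1.05, -1.46, -0.73 and -1.49, and RPG1 at -0.25, -0.76, -1.70, -0.76 and -1.10. These encode the large subunits eIF3c, eIF3b and eIF3a. TIF34 and TIF35, for the small subunits eIF3i and eIF3g, lay at -0.22, -0.49, -1.53, -0.22 and -0.77 and at -0.23, -0.03, -1.44, -0.28 and -0.85. In wild type the 5 genes spanned 0.31 in KCl but 1.45 in peroxide, where the 3 large subunit genes were lower than TIF34 and TIF35. The 2 small subunit genes were also the highest of the complex in the mutant in peroxide and in KCl.

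The factors that bring the mRNA to the ribosome went different ways. The cap-binding protein eIF4E, encoded by CDC33, and the helicase eIF4A, encoded by TIF1 and TIF2, are held together by the scaffold eIF4G, while eIF4B, encoded by TIF3, aids the helicase. TIF4631, the gene of the more abundant eIF4G, was the lowest of all 49 genes on each of the 5 arrays, at -0.81, -1.51, -1.96, -1.72 and -1.82. This was 3.90-fold lower than in unstressed cells for wild type in KCl, and in the mutant in peroxide 3.29-fold lower than in wild type. Its paralogue TIF4632, which encodes the other eIF4G, lay at -0.32, -0.57, -0.07, -0.51 and -0.14. The difference between the ratios of TIF4631 and TIF4632 was -0.49, -0.93, -1.89, -1.21 and -1.68, widest on the KCl arrays.

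TIF3 lay at -0.22, -0.55, -1.53, -0.38 and -1.16, low on the KCl arrays, and CDC33 at 0.09, -0.41, -1.02, -0.44 and -0.47. TIF1 and TIF2 encode the same protein and are so alike that their probes may not tell them apart. TIF2 lay at 0.10, -0.08, -0.29, 0.27 and -0.07. TIF1 lay at 0.25, 0.04, -0.31 and, in the mutant in KCl, 0.14. Both eIF4A genes thus stayed close to 0 on the arrays where the eIF4B and TIF4631 ratios were low.

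Elongation factor genes stood on both sides of 0. The factor eEF1A, encoded by TEF1 and TEF2, delivers charged tRNAs, eEF2, encoded by EFT1 and EFT2, moves the ribosome, and eIF5A, encoded by HYP2, helps it through difficult peptide bonds. HYP2 lay at 0.70, 0.62, 1.25, 0.72 and 0.83, TEF1 at 0.60, 0.44, 1.13, 0.38 and 0.52, EFT1 at 0.28, 0.39, 0.67, 0.29 and 0.37, and EFT2 at 0.02, 0.34, 0.40, 0.41 and 0.17. These 4 were the only genes of the 46 with complete values that lay above 0 on all 5 arrays. TEF2 lay above 0 on the 4 arrays where it had a value, at 0.60, 1.45, 1.37 and 0.96. The 3 genes at least 2-fold higher in wild type in KCl were HYP2, TEF1 and TEF2, and TEF2 was the only such gene in wild type in peroxide.

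TEF1 and TEF2 encode the same protein, as do EFT1 and EFT2, and the members of a pair may share hybridisation. The TEF1 and TEF2 ratios nevertheless differed by 1.01 in wild type in peroxide and by less than 0.01 in the unstressed mutant. TEF4, which encodes a subunit of the exchange factor that reloads eEF1A, lay at -0.61, -0.27, -0.63, -0.25 and -0.67, below 0 throughout. YEF3, the gene of the fungal factor eEF3 that helps to empty the ribosome's exit site, lay at 0.05, -0.26, -1.23, 0.19 and -1.30. It was at least 2-fold lower on both KCl arrays and near 0 on the others.

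ANB1 encodes a second eIF5A that is known to be made when oxygen is scarce, while HYP2 is expressed in air. ANB1 lay at -0.62, -0.43, -1.24, -0.56 and -0.31, below 0 on every array where HYP2 lay above it. The difference between the ratios of HYP2 and ANB1 ran from 1.05 in wild type in peroxide to 2.48 in wild type in KCl. The related helicase genes DED1 and DBP1, whose products unwind mRNA leaders during scanning and which were not among the 50 listed genes, differed in the same manner. DED1 lay at -0.60, -1.86, -0.73, -0.37 and -1.11 and DBP1 at 0.17, 0.62, 1.10, 1.13 and 1.06.

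**Figure D4:**
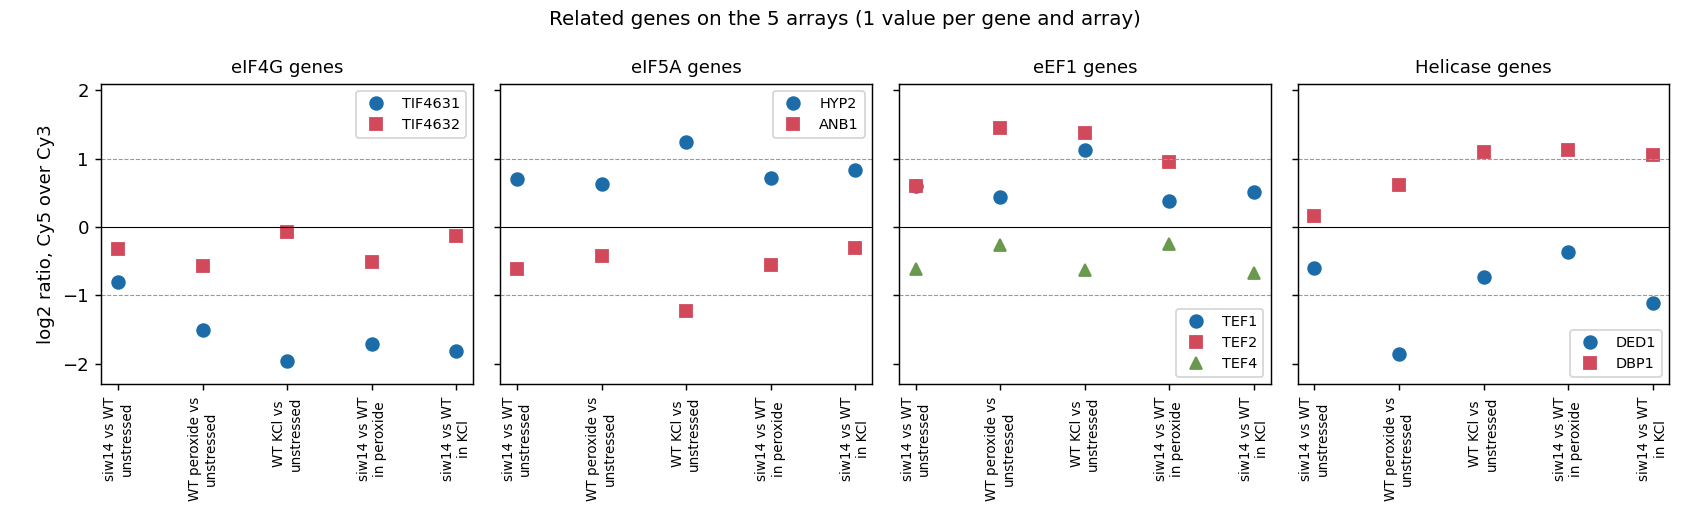
Log2 ratios of related genes on the 5 arrays in 4 panels, 1 point per gene and array, with dashed lines at 2-fold: the eIF4G genes TIF4631 and TIF4632, the eIF5A genes HYP2 and ANB1, the eEF1 genes TEF1, TEF2 and TEF4, and the helicase genes DED1 and DBP1. TIF4631 lies below TIF4632, ANB1 below HYP2, TEF4 below TEF1 and DED1 below DBP1 on each array.

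The termination factor genes lay below 0 under stress. SUP45 encodes eRF1, which reads the stop codons, and lay at 0.08, -1.04, -1.15, -0.63 and -0.63. SUP35 encodes its GTPase partner eRF3, known also for its prion form, and lay at -0.07, -0.72, -0.91, -0.82 and -0.38. Both lay close to 0 in the unstressed mutant and below it on the other 4 arrays.

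Under stress the mutant ratios of most genes were below their unstressed mutant ratios. The ratio in KCl was below the unstressed one for 41 of 47 genes, against 50.7% of all genes, with a median difference of -0.54. In peroxide this held for 36 of 48, against 51.9%, with a median difference of -0.24. The difference in KCl was lowest for NIP1 at -1.37, YEF3 at -1.35 and PRT1 at -1.26, and highest for DPS1 at 0.27. In peroxide it was lowest for NIP1 at -1.02 and TIF4631 at -0.91. Cytosolic ribosomal protein genes had median differences of -0.86 in KCl and -0.30 in peroxide. The counts and differences above are of unscaled ratios. The spread of all genes, as a median absolute deviation, was 0.38 on the unstressed mutant array, 0.76 in peroxide and 0.74 in KCl. After scaling to a common spread the mutant medians of the genes described here were -0.28 unstressed, -0.39 in peroxide and -0.65 in KCl.

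KCl and peroxide also differed within each strain comparison. In wild type the KCl ratio was below the peroxide ratio for 42 of 49 genes, against 51.1% of all genes. These arrays share the unstressed ACY044 cells as their reference. The exceptions were VAS1, GCD7, TIF4632, TEF1, EFT1, EFT2 and HYP2. On the mutant arrays the KCl ratio was the lower for 38 of 46 genes, against 52.3% of all genes.

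Genes that were low in stressed wild-type cells tended to be low again in the mutant against wild type under the same stress. Across 47 genes the ratios of wild type in KCl and of the mutant in KCl had a Pearson correlation of 0.88 and a Spearman correlation of 0.80, and across all 5735 genes with both values a Pearson correlation of 0.69. For peroxide the correlations were 0.88 and 0.85 across 48 genes, and 0.66 (Pearson) across 5777. Without TEF1, TEF2, EFT1, EFT2 and HYP2, chosen after their values were seen, the Pearson correlations were 0.79 in KCl and 0.78 in peroxide. The relation was not confined to matching stresses. Wild type in peroxide and the mutant in KCl had a Pearson correlation of 0.78, and of 0.66 without those genes. For wild type in KCl and the mutant in peroxide it was 0.74, and 0.46 without them. Across all genes both unmatched correlations were 0.58. The points are genes and not replicates, and the arrays share probes and the same dye order.

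**Figure D5:**
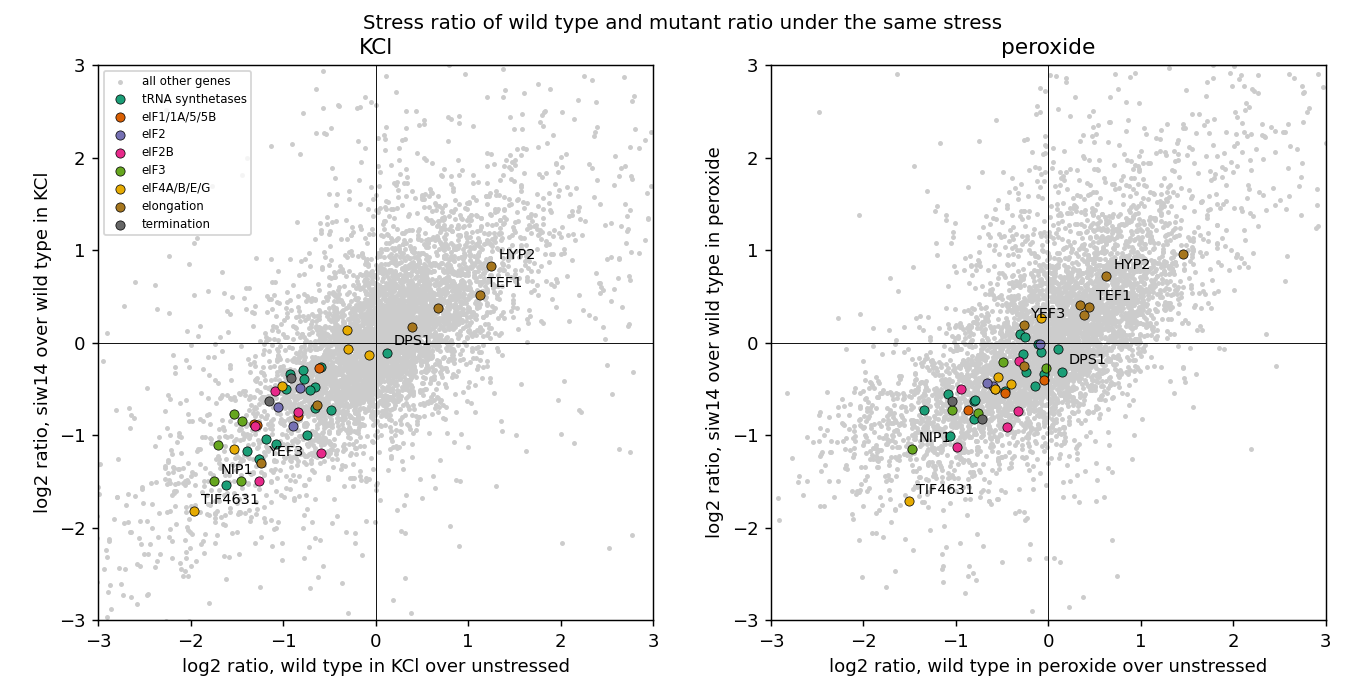
Each gene's log2 ratio of stressed over unstressed wild type (horizontal) against that of mutant over wild type under the same stress (vertical), for KCl and peroxide, with the genes described here coloured by role and all others in grey; genes beyond 3 on either axis are not shown. Most coloured points lie at the lower left, and TIF4631 is the lowest of them on the vertical axis in both panels.

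Set against other genes of protein synthesis, the 49 genes and the ribosomal protein genes stood in a different order on the KCl arrays. Cytosolic ribosomal protein genes were at least 2-fold lower in 20 of 128 cases in wild type in KCl, or 15.6%. This compares with 42.9% of the 49 genes and 11.7% of all genes. In the mutant in KCl 53 of 132 ribosomal protein genes were lower, or 40.2%. This compares with 27.7% of the 47 genes with a value and 11% of all genes. The medians of ribosomal protein genes on these arrays were -0.27 and -0.86, against -0.90 and -0.71. In peroxide the ribosomal protein medians were -0.04 in wild type and -0.34 in the mutant, against -0.41 and -0.44, so the order was the same. The KCl arrays used wild types of different names. With 1 array for each comparison, the change of order in KCl was not tested.

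Mitochondrial synthetase and translation factor genes lay on the other side of 0, with medians of 0.16, 0.67, 0.33, 0.48 and 0.40 over 16 or 17 genes. Of them 0 were at least 2-fold lower on any array, against 1.55% to 11.7% of all genes by array. MSF1, for the mitochondrial phenylalanine enzyme, was highest in wild type in peroxide at 1.37. Genes for enzymes that modify tRNAs or translation factors had medians of -0.23, -1.0, -1.42, -0.57 and -1.16. Of these, 8 of 12 were at least 2-fold lower in wild type in KCl, against 11.7% of all genes. In the mutant in KCl 6 of 11 were, against 11%. GCD10, which encodes a subunit of a tRNA methyltransferase, lay at -2.07 in the mutant in KCl.

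Further cytosolic factors and regulators, of which 19 of 24 had a probe, had medians of -0.20, -0.34, -0.71, -0.37 and -0.51. At least 2-fold lower were 7 of the 19 in wild type in KCl and 6 in wild type in peroxide, against 11.7% and 11.3% of all genes. In wild type in KCl 1 was at least 2-fold higher, against 11.5%. RLI1, whose product splits ribosomes after termination, lay at -0.33, -2.71, -1.92, -1.51 and -1.15. NEW1, a gene related to YEF3, lay at -0.36, -1.84, -2.13, -1.35 and -1.37. RBG1, which encodes a GTPase that binds ribosomes, lay at -2.42 in wild type in KCl. RLI1, NEW1, DED1 and SRO9 were further below 0 in wild type in peroxide than any of the 49 genes, the latter 2 both at -1.86. Among the modifying enzyme genes the same held for TRM1 at -2.11 and DPH2 at -1.96.

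Of the genes around Gcn2 and Gcn4, the kinase and the transcription activator that respond to uncharged tRNA, GCN2 stayed near 0 at 0.02, -0.26, -0.14, -0.36 and -0.19. GCN4 lay at 0.62, -0.28, -0.95, 0.44 and 0.44, so that it was above 0 on the 3 mutant arrays and below 0 on both wild-type stress arrays. Gcn4 is known to be controlled mostly at translation, which RNA levels do not measure. GCN1 and GCN20, which help to activate Gcn2, and YIH1, an inhibitor of that step, lay below 0 wherever they had a value, and only YIH1 in wild type in KCl, at -1.16, was at least 2-fold lower.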

How the data were processed

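The authors' deposited values, 1 log ratio per probe and array, were taken to be log2 ratios of Cy5 to Cy3, with the dyes per the labels. The log base, scanner, background correction, normalisation and missing-value filter are not given in the sources used here. A base of 10 was set aside because values reach 9.69 and a 16-bit scanner spans at most 4.82 in base 10; natural logarithms were tried as an alternative. Intensities were not used, and the number of arrays limits the precision. The platform's annotation named 1 gene for 4075 of the 6256 yeast probes and none for 2181; no probe had several, and 129 symbols were updated through the synonyms of the RefSeq gene table (R64). Probes of a gene were averaged for 7 genes, which left 6249 values per array, and 53 control features were left out. For the stressed mutant arrays the treatment entries and titles were followed, since the Cy3 source name gives only the medium.

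Counts and medians were computed with Python 3.11.15 and pandas 2.3.3 and the summary code was tested on simulated data. With 1 array per comparison no test was made. Every listed gene could be named; of other translation genes, those 2-fold or more from 0 and the highest and lowest on an array, with ANB1, GCN2, GCN4 and SIW14, and any other was named after its values were seen. The listed genes and lists were chosen with earlier results of these data known. No sequences are printed, since none were used here.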

Additional observations from a re-analysis of the deposited data

Results flagged for a closer look

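The 49 genes and 54 other translation genes with a probe were searched for ratios of opposite sign at least 1 apart on the log2 scale. Mutant arrays were compared with each other, and likewise the wild-type stress arrays. The rule was met by 5 genes, of which YEF3 and TIF11 are among the 49. The share of all genes that meet it was not computed. None of these differences was tested, since each ratio comes from 1 array. The mutant ratio of YEF3 was 0.19 in peroxide and -1.30 in KCl, a difference of 1.49. That of TIF11 was 0.27 without stress and -0.79 in KCl, a difference of 1.07. GCD10, for a tRNA methyltransferase subunit, had mutant ratios of 0.12 without stress and -2.07 in KCl, a difference of 2.18. CDC123, whose product helps to assemble eIF2, had mutant ratios of 0.38 in peroxide and -0.77 in KCl, a difference of 1.15. IFM1, which encodes the mitochondrial initiation factor, lay at 0.79 in wild type in peroxide and at -0.40 in wild type in KCl, a difference of 1.19.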

How the results depend on the processing

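Setting array medians to 0 or using the platform's symbols as given left all 15 medians and counts of the 49 genes within the interval over genes or within 1.5 times. Scaling the arrays to a common spread moved the unstressed mutant's median to -0.28, with 3 genes higher and 6 lower, against 12.3% and 7.14% of all genes, and left 3 lower in wild type in peroxide. Read as natural logarithms, the medians were -0.59 in peroxide and -1.29 in KCl for wild type, and -0.64 in peroxide and -1.03 in KCl for the mutant. In the same array order the genes at least 2-fold lower were then 15, 33, 12 and 24, against 19.1%, 17.9%, 16.7% and 17.3% of all genes. Those higher in the mutant were 2 in peroxide and 1 in KCl, against 19.8% and 18.4%, and the unstressed mutant had 1 higher and 1 lower, against 9.64% and 4.07%. At 1.5-fold the lower counts were 4 without stress, 15 in peroxide and 27 in KCl for the mutant, against 6.53%, 20.9% and 21.3% of all genes, and 17 in peroxide and 39 in KCl for wild type, against 22.2% and 21.1%. The higher counts at 1.5-fold were 3 for the unstressed mutant, 2 for each peroxide array and 1 for the mutant in KCl, where 11.8% of all genes were higher without stress, 22.9% and 23.2% in peroxide (wild type, then mutant) and 21.9% in the mutant in KCl. With only the 46 genes that had all values, or with TEF1 and TEF2, EFT1 and EFT2, and TIF1 and TIF2 averaged, 0 genes were higher in wild type in peroxide. The averaging was chosen after seeing the data, and the planned version by protein identity was not run because no protein sequences were used here. No median of the 49 genes or of a role that was at least 1 in size turned its sign. This is no check of the results, since scaling cannot turn a sign and array medians lay only between -0.02 and 0.03. No paired analysis was possible because each comparison had 1 array.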

Other observations

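The synthetase genes with the greater gene lengths in RefSeq had the lower ratios, most of all in wild type in peroxide. There the ratio and log2 gene length had a Pearson correlation of -0.78 and a Spearman correlation of -0.73 across 17 genes. The relation was weaker in the 32 factor genes, with a Pearson correlation of -0.28 on that array. Across 4037 named genes the Pearson correlation on that array was -0.21. On the other arrays the Pearson correlation of the synthetase genes was -0.32 for wild type in KCl, and for the mutant -0.60 without stress, -0.58 in peroxide and -0.51 in KCl. On those arrays it lay between -0.43 and -0.18 across the factor genes, and between -0.25 and -0.06 across all named genes. VAS1, CDC60, ILS1 and ALA1, with gene lengths of 3315, 3273, 3219 and 2877 bp, lay at -1.35, -0.80, -0.80 and -1.06 in wild type in peroxide. On that array TYS1, WRS1 and SES1, with 1185, 1299 and 1389 bp, lay at -0.04, -0.47 and -0.15. The points are genes on 1 array and not replicates, and the relation was looked for after the values were seen.

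The 49 genes lie on 15 chromosomes in RefSeq.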
